A study of Mus musculus with 45 samples.

Results

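The ERV1 families are the class I endogenous retroviruses of the mouse genome, and the members described here are all repeat families whose annotated family was ERV1 in the count tables, 149 of 1146 families. By the start or end of the name (RLTR, RMER, LTRIS, _Mm and the mouse families below), 57 were counted as rodent-named (10 internal sequences and 47 long terminal repeats, LTRs) and 92 carried other names (20 internal sequences and 72 LTRs), among them MER families of old elements shared with other mammals and also RodERV21-int and LTR72_RN, whose names point to rodents. The samples were 45 RNA-seq libraries of mouse embryonic stem cells (mESCs) in 15 groups of 3. In the time course, cells with a degron tag on EHMT2 (EHMT2-dTAG-mcherry, BL6/129 background) received DMSO or dTAG, which degrades tagged EHMT2, for 24 h or 7 d. In the washout experiment the same line received DMSO for 15 d, dTAG for 15 d, or dTAG for 7 d followed by 8 d of recovery in DMSO (Recovery), and in both experiments the 3 samples of a group were the clones E2-17, E2-20 and E2-K71. In the sorting experiment a derivative with a MERVL-GFP reporter (EHMT2-dTAG-mcherry-mervl-gfp) was treated for 72 h with DMSO or dTAG and split by flow sorting into cells without GFP (called mESC) and cells with GFP (called 2-cell-like cells, 2CLC). In the Dppa4 experiment WT mESCs (WTJ1) and Dppa4 KO mESCs (DPPA4KO, made by CRISPR/Cas9) were grown with DMSO or with UNC0638, which blocks the catalytic activity of EHMT2 and its partner EHMT1 for 48 h. The degron allele was present in every group of the first 3 experiments, DMSO controls included, and in none of the Dppa4 experiment. The study's methods give 3 clonal lines for WTJ1 and DPPA4KO, and since no line occurs with both genotypes, genotype and line origin cannot be told apart.

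ERV1 elements are relatives of gammaretroviruses such as murine leukaemia virus. An intact copy has an internal sequence that encodes viral proteins between a pair of LTRs, which hold the promoter, and most copies in a genome are solitary LTRs. In embryonic stem cells many ERV1 copies are silenced through TRIM28 and the H3K9 methyltransferase SETDB1, which zinc finger proteins such as ZFP809 bring to the retroviral primer binding site, whereas EHMT2 (G9a) with EHMT1 deposits H3K9me2. Mouse ERV1 families include MMERGLN (the GLN family, named for the glutamine tRNA that primes it), the VL30 elements (MMVL30-int), the murine leukaemia virus sequences (MuLV-int and RLTR4), the MuRRS sequences and the MURVY elements of the Y chromosome. Values are counts divided by DESeq2 size factors (normalized counts), summed over all copies of a family, since a read with many genomic places was put at a single random place. They are not divided by length or copy number, so levels of different families are counts and not activity per copy.

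Per-library values were used for the Dppa4 experiment only (12 libraries, 8727627 to 13469447 reads). The other 3 experiments were used as the authors' group means, which have no replicate error here, so no test was possible and their ratios are descriptions. Repeats took 2.41% to 5.99% of reads in the 12 libraries. Dppa4 KO UNC0638 library 3 had the lowest share, followed by KO DMSO library 2 at 2.91%. Dppa4 was at 0 in all 6 KO libraries and between 700 and 920 normalized counts in the 6 WT libraries. Tagged Ehmt2 transcripts do not report the protein, and the group means of Ehmt2 were 616 and 609 at 24 h and 622 and 582 at 7 d in DMSO and dTAG. The summed 2-cell-like markers (Zscan4c, Zscan4d, Zfp352, Duxf3, Usp17la, Tcstv1 and Tcstv3) were 0 to 3.49 in Dppa4 KO libraries, 52.4 to 933 in WT DMSO and 400 to 3568 in WT UNC0638, with WT library 3 the highest in both treatments. The summed fibroblast feeder markers (8 genes) were 1181 to 1911 in the KO libraries and 1930 to 2905 in the WT libraries. The summed trophoblast markers (4 genes) were 97.7 to 936 in WT and 62.4 to 209 in KO, and the primitive endoderm markers (5 genes) 81.3 to 198 and 68.5 to 172. The sum of the pluripotency markers (8 genes) was higher in every KO library than in every WT library of the same treatment. It was 66480 to 68340 against 47293 to 63425 in DMSO and 58153 to 61585 against 45570.1 to 53249 in UNC0638. This holds for the sum and not for each gene. Nanog was lower in KO in DMSO (log2 fold change -0.14). Klf4 was the 1 gene of the 8 with an adjusted p under 0.05 in either contrast (0.0025 in DMSO and 0.0223 in UNC0638, limma). The part of these markers in the genotype contrasts was not tested.

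In the Dppa4 experiment, 129 of the 149 ERV1 families had at least 1 read and 81 passed the filter on low counts and were tested (50 rodent-named and 31 other-named). The 20 families with no read all carried other names. The 10 most abundant families held 82.0% of ERV1 counts averaged over the 12 libraries, and RLTR1B-int alone held 38.0%, followed by MMERGLN-int (11.4%), MMVL30-int (10.5%) and MuLV-int (6.52%). The shares differed by group, since RLTR1B-int held 25.6% in WT DMSO and 51.7% in KO DMSO, and MMERGLN-int held 14.9% and 5.33%. Without both WT libraries numbered 3 the mean of MMERGLN-int was 1804, below that of MMVL30-int at 2776. A further 6 families (RLTR4_MM-int, LTRIS2, RLTR1B, RMER5, MLTR14 and RLTR4_Mm) held 1.51% to 4.32% each, and MLTR14 was the single other-named family among the 10. ERV1 families made up 4.52% to 8.43% of repeat reads.

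The question of whether ERV1 transcripts differed without DPPA4, a chromatin-binding activator of 2-cell-stage genes, was addressed by comparing KO with WT in each treatment, and the RLTR1B element was higher in KO. RLTR1B-int, its internal sequence, was at 5779, 4709.7 and 7438 normalized counts in WT DMSO and at 13751, 14669 and 15772 in Dppa4 KO DMSO. Every KO library was above every WT library. The log2 fold change was 1.32 with an SE of 0.27 (adjusted p = 0.0176, limma with Benjamini-Hochberg adjustment over 782 repeat families). Its LTR, RLTR1B, was at 337, 230.01 and 458 in WT DMSO and at 734, 916 and 929 in KO DMSO. The groups did not overlap here either, and the log2 fold change was 1.38 (SE 0.29, adjusted p = 0.0176, limma). These were the 2 ERV1 families called (adjusted p under 0.05 and at least a 2-fold change) of 81 tested, while 0.639% of all repeat families were called. At an unadjusted p under 0.05, 6 of 81 were higher and 4 lower, against 6.65% of all repeat families in either direction. Leaving out WT DMSO library 1 or 2, or KO DMSO library 1, 2 or 3, each took both out of the calls, with adjusted p from 0.0527 to 0.186 for RLTR1B-int and from 0.0527 to 0.25 for RLTR1B (limma). Their log2 fold changes stayed between 1.17 and 1.495 and between 1.12 and 1.61 over all libraries left out. With TMM scaling over the repeat families alone RLTR1B-int was called (adjusted p = 0.00154) and RLTR1B was not (log2 fold change 1.34, adjusted p = 0.172, limma).

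**Figure D1:**
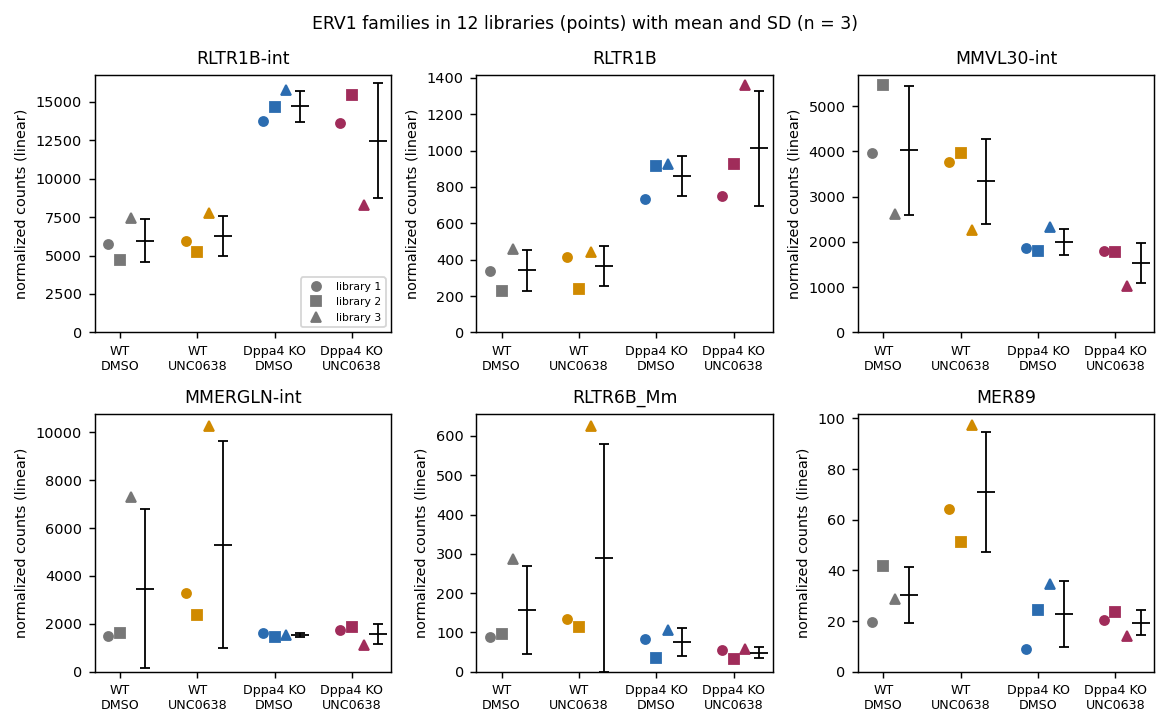
Normalized counts (linear axis from 0) of 6 ERV1 families in the 12 libraries of the Dppa4 experiment. Points are libraries, with the symbol giving the library number, and the black bar is the mean with its SD (n = 3). RLTR1B-int and RLTR1B lay higher in every Dppa4 KO library than in every WT library of either treatment, and WT library 3 stood apart for MMERGLN-int and RLTR6B_Mm.

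Under UNC0638 the same LTR was higher without DPPA4. RLTR1B was at 416, 241 and 442 in WT UNC0638 and at 748, 929 and 1362 in Dppa4 KO UNC0638, with no overlap. The log2 fold change was 1.47 (SE 0.29, adjusted p = 0.00504, limma), and it was the 1 ERV1 family called of 81, beside 1.15% of all repeat families. At an unadjusted p under 0.05, 3 of 81 were higher and 8 lower, against 13.0% of all. Without WT UNC0638 library 2 its log2 fold change was 1.19 and it was not called (adjusted p = 0.0689, limma). RLTR1B-int was at 5926, 5217 and 7749 in WT UNC0638 and at 13641, 15475 and 8277 in KO UNC0638. The groups did not overlap, but KO library 3, which had the lowest repeat share, was well below the other KO libraries. The log2 fold change of 0.96 (SE 0.27) did not pass (adjusted p = 0.0932, limma), and without KO UNC0638 library 3 it was 1.23 and called (adjusted p = 0.00652, limma). With all libraries and TMM over repeats it was called (log2 fold change 1.26, adjusted p = 0.000723, limma). DESeq2 gave a log2 fold change of 0.98 (adjusted p = 0.0125), under the 2-fold limit. No difference between the genotypes in the response to UNC0638 was detected for either family. The difference of effects for RLTR1B was 0.09 on the log2 scale with a 95% interval of -0.77 to 0.96, and for RLTR1B-int -0.37 with an interval of -1.17 to 0.43.

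Several other families had lower values without DPPA4 in UNC0638 that did not pass the adjusted threshold. Lower values were general among repeats in this contrast. The median log2 fold change was -0.28 over ERV1 and -0.34 over all repeat families, with 27 of 81 and 164 of 782 families above 0. RLTR6B_Mm, an LTR of the RLTR6 group, was at 133, 113 and 625 in WT UNC0638 and at 55.2, 32.3 and 57.6 in KO UNC0638. Every KO library was below every WT library, and the log2 fold change was -2.15 (SE 0.54, adjusted p = 0.0511, limma). It was called when WT UNC0638 library 1 or 2, WT DMSO library 1 or 3, or KO DMSO library 2 or 3 was left out (adjusted p from 0.0167 to 0.0474, limma), and by edgeR (adjusted p = 0.0129) and DESeq2 (adjusted p = 0.0308). The DMSO libraries lie outside this contrast. Leaving them out kept the log2 fold change at -2.15 and changed only the shared estimate of spread. With all libraries RLTR6B_Mm was also called with the replicate block (adjusted p = 0.00224, limma), with a pseudocount of 5 (adjusted p = 0.0347, limma) and with genes and repeats fitted together (adjusted p = 0.0479, limma). It was not called with a pseudocount of 0.5 (adjusted p = 0.0632, limma) or with no filter beyond 1 read (adjusted p = 0.104, limma). TMM over repeats did not call it either (log2 fold change -1.85, adjusted p = 0.228, limma). Nor was it called without both WT libraries numbered 3 (log2 fold change -1.37, adjusted p = 0.303, limma). MMVL30-int, the internal sequence of VL30 elements, was at 3762, 3973 and 2264 in WT UNC0638 and at 1787, 1785 and 1029 in KO UNC0638 (log2 fold change -1.12, SE 0.29, adjusted p = 0.0578, limma). The groups did not overlap. Without WT DMSO library 3, which lies outside this contrast and left the log2 fold change at -1.12, the family was called (adjusted p = 0.0302, limma). Without WT UNC0638 library 3 it was also called (adjusted p = 0.0164, limma). With all libraries it was called by DESeq2 (adjusted p = 0.0139), with a pseudocount of 5 (adjusted p = 0.0457, limma), with the replicate block (adjusted p = 0.0262, limma) and with genes and repeats fitted together (adjusted p = 0.0303, limma), but not by edgeR (adjusted p = 0.065). In DMSO MMVL30-int was at 3962, 5474 and 2621 in WT and at 1869, 1793 and 2331 in KO (log2 fold change -0.95, SE 0.29, adjusted p = 0.249, limma), again without overlap. MuLV-int, the internal sequence of murine leukaemia virus, was at 1989.9, 2477 and 1832 in WT UNC0638 and at 1536, 1202 and 596 in KO UNC0638 (log2 fold change -1.01, SE 0.29, adjusted p = 0.0932, limma). Without KO UNC0638 library 1 MuLV-int was called (log2 fold change -1.30, adjusted p = 0.0266, limma). With all libraries it was called with genes and repeats fitted together (adjusted p = 0.0462, limma). It was not called by DESeq2 (log2 fold change -0.92, adjusted p = 0.0723) or by edgeR (log2 fold change -0.92, adjusted p = 0.146). MER89, an old mammalian LTR, was at 64.3, 51.4 and 97.4 in WT UNC0638 and at 20.2, 23.7 and 14.0 in KO UNC0638 (log2 fold change -1.81, SE 0.52, adjusted p = 0.0932, limma). DESeq2 called it (adjusted p = 0.0176) and edgeR did not (adjusted p = 0.0653). In WT DMSO MER89 was at 19.8, 41.8 and 28.8, which overlapped KO DMSO at 8.81, 24.5 and 34.8. With TMM over repeats, MMVL30-int, MuLV-int and MER89 were not called for KO v WT in UNC0638. Their log2 fold changes were then -0.82, -0.71 and -1.51 (adjusted p = 0.212, 0.231 and 0.195, limma). Of the 81 families, 13 were lower in every KO UNC0638 library than in every WT UNC0638 library and 4 were higher, against 14.3% and 2.05% of all repeat families tested. In DMSO 10 of 81 were higher and 7 lower without overlap, against 5.88% and 5.12%.

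MMERGLN-int separated the WT libraries from each other more than the genotypes. It was at 1492, 1614 and 7313 in WT DMSO, at 3279.8, 2367 and 10264 in WT UNC0638, at 1599.8, 1432 and 1523 in KO DMSO and at 1759, 1873 and 1104 in KO UNC0638. WT library 3 was the highest in both treatments, while KO DMSO libraries differed by an SD of 84.2 around 1518 (n = 3). Its LTR, MMERGLN_LTR, had the same order in WT DMSO with 68.6, 93.5 and 391. RLTR6B_Mm was likewise highest in WT library 3, with 88.4, 95.9 and 288 in WT DMSO. The summed 2-cell-like markers were also highest in WT library 3 (933 in DMSO and 3568 in UNC0638), and their part in these values was not tested. In KO v WT with UNC0638 MMERGLN-int had a log2 fold change of -1.48 (SE 0.47, adjusted p = 0.152, limma), and it was called without WT DMSO library 3 (adjusted p = 0.0232, limma). That library lies outside this contrast, so the log2 fold change stayed at -1.48 and only the shared estimate of spread changed. Without both WT libraries numbered 3 MMERGLN-int had a log2 fold change of -0.86 and was not called (adjusted p = 0.352, limma). With both WT libraries numbered 3 left out, a choice made after the data were seen, RLTR1B-int and RLTR1B were called in DMSO (log2 fold changes 1.495 and 1.61) together with LTR72_RN and MMVL30-int. With all libraries LTR72_RN had a log2 fold change of 2.14 in KO v WT in DMSO (SE 0.53, adjusted p = 0.0681, limma), and it was called by DESeq2 (adjusted p = 0.0221), with TMM over repeats (adjusted p = 0.0451, limma) and with genes and repeats fitted together (adjusted p = 0.0195, limma), but not by edgeR (adjusted p = 0.0707).

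**Figure D2:**
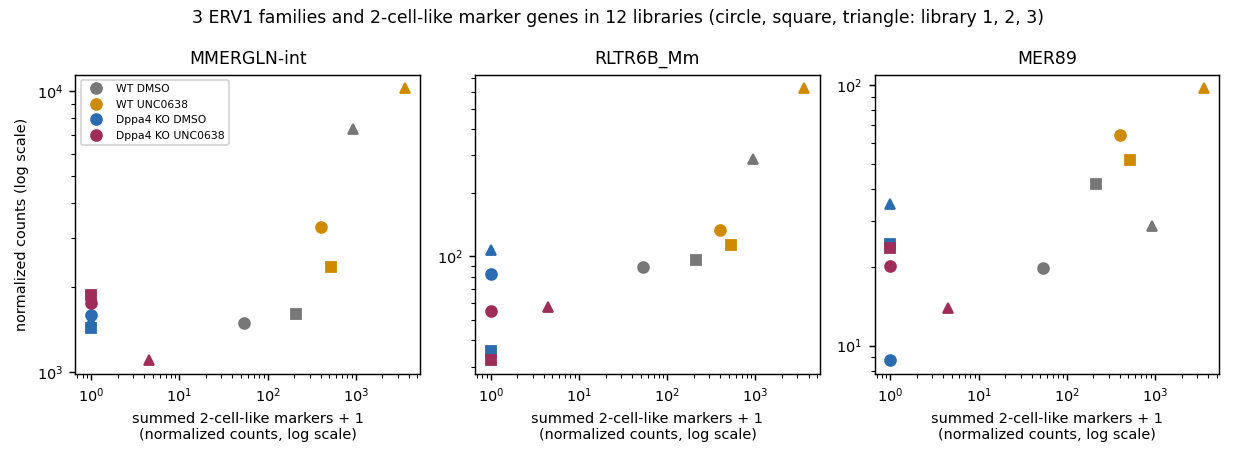
Normalized counts (log scale) of MMERGLN-int, RLTR6B_Mm and MER89 against the summed 2-cell-like marker genes plus 1 (log scale) in the 12 libraries of the Dppa4 experiment. WT UNC0638 library 3 held the highest value of all 3 families and of the markers (3568), and the KO libraries lay at marker sums of 0 to 3.49.

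UNC0638 gave no called ERV1 family within either genotype (0 of 81 in WT and 0 of 81 in Dppa4 KO), and 0.0% of all repeat families were called in each. At an unadjusted p under 0.05, 7 ERV1 families were higher and 0 lower in WT, against 11.0% of all repeat families in either direction, and 3 were higher and 2 lower in KO, against 5.24%. edgeR and DESeq2 on the recovered reads also called 0 in both. MURVY-int, a Y-linked retroviral sequence, led by p in both genotypes. It was at 1.16, 0 and 16.6 in WT DMSO and at 66.0, 18.7 and 50.3 in WT UNC0638, with a log2 fold change of 3.60 (SE 0.84, adjusted p = 0.118, limma). In KO it was at 6.85, 13.2 and 6.96 in DMSO and at 58.9, 99.98 and 20.1 in UNC0638, with a log2 fold change of 2.39 (SE 0.84, adjusted p = 0.817, limma). The groups did not overlap in either genotype. Without WT DMSO library 3 MURVY-int was called in WT (log2 fold change 4.79, adjusted p = 0.00142, limma). With the library number taken as a clonal line within each genotype, a block chosen after the data were seen, it was called in WT (adjusted p = 0.0367, limma). LTR72_RN followed in WT, with 8.14, 6.15 and 17.5 in DMSO and 45.8, 29.0 and 44.7 in UNC0638 (log2 fold change 1.91, SE 0.53, adjusted p = 0.239, limma). In KO it was at 47.9, 29.5 and 68.5 in DMSO and at 21.2, 33.3 and 13.1 in UNC0638, and the difference of the UNC0638 effects was -3.00 (SE 0.75, adjusted p = 0.447, limma). In WT 17 of 81 families were higher in every UNC0638 library than in every DMSO library and 1 was lower, against 27.4% and 0.512% of all repeat families. In KO 5 were higher and 2 lower, against 4.73% and 1.66%. The median log2 fold change was 0.39 over the ERV1 families and 0.43 over all repeat families in WT, and 0.08 and 0.05 in KO. The test of the difference between genotypes called 0 of 81, with 2 at an unadjusted p under 0.05 against 5.37% of all repeat families, and edgeR and DESeq2 called 0.

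Summed over the 149 families, ERV1 was at 23345 ± 2913 normalized counts in WT DMSO, 26189 ± 5159 in WT UNC0638, 28469 ± 1523 in KO DMSO and 25804 ± 6146 in KO UNC0638 (SD, n = 3). The KO DMSO libraries (27328 to 30198) lay above the WT DMSO libraries (21439 to 26697), whereas the UNC0638 groups overlapped. As shares of repeat reads the order changed. The DMSO groups then overlapped, with 5.32% to 8.43% in KO and 5.43% to 6.14% in WT. The UNC0638 groups did not, with 5.70% to 6.88% in KO and 4.52% to 5.14% in WT. The RLTR1B-int mean was 5976 in WT DMSO and 14731 in KO DMSO, a wider gap than that of the ERV1 sums. The other ERV1 families together thus had a lower mean sum in KO DMSO than in WT DMSO.

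Among 40 listed silencing factors, 39 were found and tested (the other, Fam208a, is an older symbol of the listed Tasor), and the background of called genes was 4.43% of 17271 for KO v WT in DMSO and 3.28% in UNC0638. Dnmt3b, a de novo DNA methyltransferase, was lower in KO in DMSO (1846 ± 423 in WT, 888 ± 301 in KO, SD, n = 3, log2 fold change -1.09, SE 0.28, adjusted p = 0.0287, limma) and was the 1 of 39 called. In UNC0638, 3 of 39 were called, all lower in KO, namely Dnmt3b (log2 fold change -1.22, adjusted p = 0.0215), Zfp462 (-1.07, adjusted p = 0.0487), a partner of EHMT2 complexes, and Cbx5 (-1.01, adjusted p = 0.034), which encodes a heterochromatin protein (limma). Trim28, Setdb1 and Zfp809 did not pass in either contrast. In the sorted cells, where only group means were used, Zfp809 was at 210 in mESC and 1943 in 2CLC in DMSO. In dTAG it was at 257 and 2534. The summed silencing factors were 52929 and 57011 in DMSO and 55841.5 and 63912 in dTAG. The part of Zfp809 in the ERV1 ratios was not tested. Of 10 genes for gammaretrovirus entry and restriction, 1 was called higher and 1 lower in KO in DMSO, and 0 were called in UNC0638. Zc3hav1, which encodes the zinc finger antiviral protein, rose (276 ± 129 in WT, 532 ± 52.3 in KO, SD, n = 3, log2 fold change 1.07, adjusted p = 0.042, limma). Fv1, a capsid-binding restriction factor, was at 15.1, 7.38 and 13.1 in WT DMSO and at 0, 1.02 and 0 in KO DMSO (log2 fold change -3.29, adjusted p = 0.0444, limma). Samhd1, a restriction factor that depletes nucleotides, was higher by 0.82 on the log2 scale (adjusted p = 0.0217, limma), under the 2-fold limit. In the UNC0638 contrasts within WT and within KO, limma called 0 genes of either list, against 0.0% of all genes in WT and 0.463% in KO.

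In the time course the ratios of group means showed opposite directions within ERV1. RLTR6B_Mm was at 147 in DMSO and 268 in dTAG at 24 h, and at 174 and 672 at 7 d. The ratio was 1.83 at 24 h and 3.86 at 7 d. MMERGLN-int was at 31333 in DMSO and 22127 in dTAG at 24 h, and at 23747 and 15977 at 7 d (ratios of 0.706 and 0.673). RLTR1B-int was at 16233 and 11525 at 24 h and at 11538 and 9624 at 7 d. VL30 sequences were higher with dTAG, with MMVL30-int at 2271 and 3243 at 24 h and at 2337 and 3354 at 7 d. MER89 was at 142 and 183 at 24 h and at 173 and 309 at 7 d. Between the DMSO groups MMERGLN-int also differed, with 31333 at 24 h and 23747 at 7 d, a ratio of 0.758, so the difference between DMSO groups was near that between dTAG and DMSO.

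Past a 2-fold ratio at 24 h were 0 of 72 ERV1 families higher and 2 lower, against 0.817% and 1.36% of all repeat families with a group mean of at least 10. The 2 lower families were RLTR30D_MM (22.2 and 6.18) and MER31A (44.9 and 21.5). At 7 d 2 of 70 were higher, RLTR6B_Mm and MURVY-int (9.06 and 28.5), and RLTR48B was lower (26.5 and 12.5), against 3.06% and 1.81% of all. Between the DMSO groups 0 of 73 were higher and 3 lower at 7 d, against 0.0% and 0.812%, namely MER52-int, MURVY-int and RLTR30D_MM. The median log2 ratio was -0.36 over ERV1 and -0.25 over all repeat families at 24 h, and -0.07 and -0.12 at 7 d. Summed ERV1 counts were 71421 in DMSO and 54469 in dTAG at 24 h, and 55963 and 46665 at 7 d, and MMERGLN-int made up 34.2% to 43.9% of these sums. In the same groups the summed 2-cell-like markers were 115 and 1403 at 24 h and 186 and 4249 at 7 d. The feeder markers were 1612 and 2140.2 at 24 h and 1431 and 2148 at 7 d, the trophoblast markers 278 and 201 at 24 h and 232 and 696 at 7 d, the primitive endoderm markers 214 and 401 at 24 h and 314 and 284 at 7 d, and the pluripotency markers 83543 and 71655 at 24 h and 68523 and 60572 at 7 d. The part of these lists in the ratios was not tested. In bulk samples more cells of a type and more RNA per cell cannot be told apart.

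After 15 d of treatment RLTR6B_Mm was at 113 in DMSO, 1051 in dTAG and 129 in Recovery, so that the dTAG mean was 9.28 times the DMSO mean and the Recovery mean 1.14 times. MMERGLN-int was at 23828, 11568 and 17387, and MMERGLN_LTR at 1724, 784 and 1160.0. The Recovery means of both MMERGLN families lay between the other groups. RLTR6-int was at 296, 646 and 320.4, MuRRS-int at 65.0, 143 and 69.7, MER89 at 63.6, 136 and 86.6 and MURVY-int at 9.57, 40.9 and 7.06. MMVL30-int was at 2027, 2340.4 and 1305, lowest in Recovery, and RLTR1B-int at 3317, 4349 and 5259, highest in Recovery.

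Past a 2-fold ratio were 5 of 61 ERV1 families higher with dTAG at 15 d, RLTR6B_Mm, MURVY-int, MuRRS-int, RLTR6-int and MER89, against 10.2% of all repeat families. Lower were 2, MMERGLN_LTR and MMERGLN-int, against 0.315%, which made both ERV1 families the whole of the families lower among all 635. With both groups scaled to the total of all repeat families, 2 of 61 were higher and 2 lower, against 4.88% and 0.63% of all. Recovery against DMSO at 15 d had 0 of 60 higher and 0 lower, against 0.796% and 0.0%. Recovery against dTAG had 0 of 62 higher and 5 lower, against 0.306% and 4.74%, namely RLTR6B_Mm, MURVY-int, MuRRS-int, RLTR30D_MM and RLTR6-int. After scaling to the repeat total 0 were higher and 2 lower, against 1.38% and 2.91% of all. These comparisons share the dTAG or the DMSO group. The summed 2-cell-like markers were 328 in DMSO, 7912 in dTAG and 533 in Recovery, and the feeder markers 2538, 3329 and 984, and their part in the ratios was not tested. The median log2 ratio of dTAG to DMSO was 0.24 over ERV1 and 0.28 over all repeat families.

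**Figure D3:**
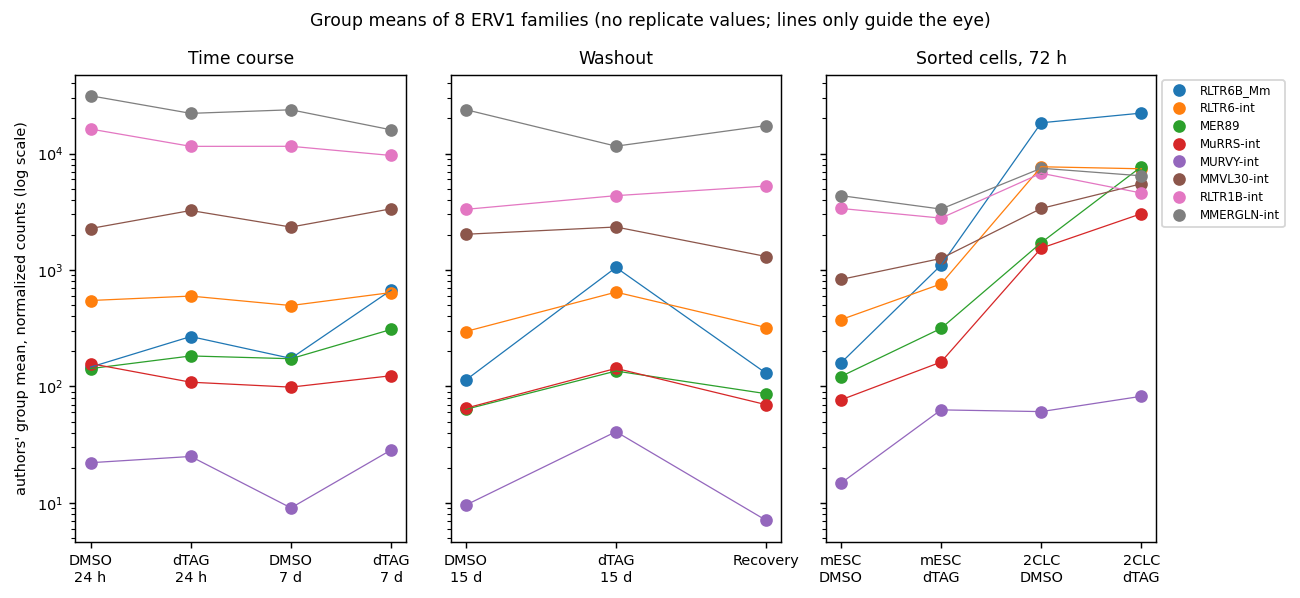
The authors' group means of 8 ERV1 families (log axis, normalized counts) in the time course, the washout experiment and the sorted cells. Lines only join the groups of a family and the 3 experiments were normalized separately. RLTR6B_Mm was at 1051 with dTAG for 15 d and at 129 in Recovery, and at 18365 in DMSO 2CLC.

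In the sorted cells the ERV1 families differed most between 2CLC and mESC. RLTR6B_Mm was at 159 in DMSO mESC, 18365 in DMSO 2CLC, 1099 in dTAG mESC and 22248 in dTAG 2CLC. It made up 22.9% of summed ERV1 counts in DMSO 2CLC and 0.733% in DMSO mESC. RLTR6-int was at 374, 7699, 759.6 and 7398 in the same order, and MuRRS-int at 76.6, 1541, 162 and 3047. MER89 was at 122 and 1717 in DMSO and at 315 and 7725 in dTAG. MuLV-int was close to level, with 2200.3 and 2042 in DMSO and 1716 and 1723 in dTAG. MMERGLN-int was at 4353, 7478, 3335 and 6437, and RLTR1B-int at 3377, 6772, 2790.0 and 4579. The other largest ratios in DMSO were those of MER67D (2.98 and 73.7) and RLTR30C_MM (5.89 and 121).

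Past a 2-fold ratio in 2CLC were 69 of 94 ERV1 families higher and 0 lower in DMSO, against 67.9% and 0.556% of all repeat families, and 66 of 98 higher and 0 lower in dTAG, against 67.3% and 0.439%. The median log2 ratio was 1.45 over ERV1 and 1.36 over all repeat families in DMSO, and 1.53 and 1.45 in dTAG, so the ERV1 share lay near the background. Repeats took 7.14% of all counts in DMSO mESC and 25.6% in DMSO 2CLC, and 8.45% and 33.2% in dTAG. With both groups scaled to the total of all repeat families, 9 of 94 ERV1 families were higher and 39 lower in DMSO. The shares over all repeat families were 6.78% and 45.9%. In dTAG 4 of 98 were higher and 58 lower, against 3.29% and 63.4% of all. RLTR6B_Mm, MuRRS-int and MER89 stayed higher under that scaling, with log2 ratios of 4.53, 2.01 and 1.498 in DMSO and 1.504, 1.40 and 1.78 in dTAG. RLTR6-int had log2 ratios of 2.04 in DMSO and 0.45 in dTAG, while those of RLTR1B-int turned to -1.31 and -2.12 and those of MMERGLN-int, 0.78 and 0.95 before scaling, turned to -1.54 and -1.88. Of the 90 families with a ratio above 1 in DMSO and the 91 in dTAG, 64 and 76 turned lower. ERV1 families together took 3.22% of repeat counts in DMSO mESC and 2.39% in DMSO 2CLC, and 2.98% and 1.73% in dTAG. The summed 2-cell-like markers were 461 in DMSO mESC and 84211 in DMSO 2CLC, as the sort on the MERVL-GFP reporter selects such cells. Between mESC and 2CLC the feeder markers were 396 and 953 in DMSO and 693 and 1575 in dTAG, the primitive endoderm markers 143 and 325 in DMSO and 153 and 438 in dTAG, and the trophoblast markers 63.1 and 181 in DMSO and 33.6 and 174 in dTAG. The pluripotency markers were 50717 and 28649 in DMSO and 43355 and 28924 in dTAG. The part of these lists in the ratios was not tested.

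**Figure D4:**
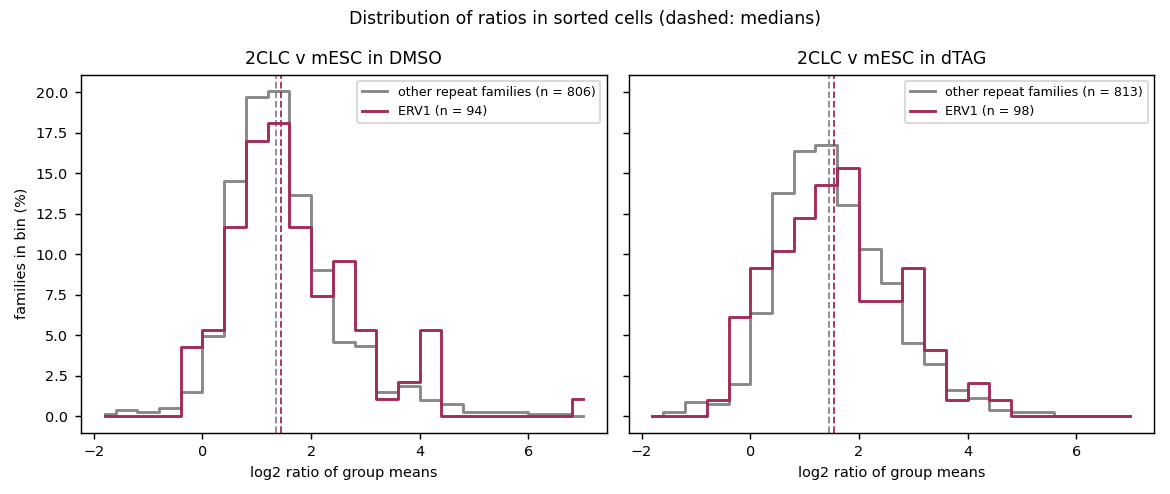
Percent of families in each bin (y axis) by log2 ratio of 2CLC to mESC group means (x axis), in DMSO and in dTAG, for ERV1 families and for other repeat families, with medians as dashed lines. The distributions overlap, with ERV1 medians of 1.45 in DMSO and 1.53 in dTAG.

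Within each sorted gate, dTAG was compared with DMSO. In mESC 10 of 87 ERV1 families were higher with dTAG and 0 lower, against 5.88% and 0.0% of all repeat families, led by RLTR6B_Mm (159 and 1099) and MURVY-int (14.7 and 63.0). RLTR5_Mm (5.24 and 17.9) and RLTR30C_MM (5.89 and 18.2) were low in both groups. The summed 2-cell-like markers were 461 in DMSO mESC and 5467 in dTAG mESC, and their part in these ratios was not tested. In 2CLC 7 of 100 were higher and 2 lower, against 6.35% and 0.861%. After scaling to the repeat total 1 was higher and 12 lower, against 0.323% and 8.93% of all repeat families. MER89 led with a ratio of 4.50, from 1717 to 7725, and its log2 ratio after scaling was 1.39. RLTR6B_Mm had a ratio of 1.21 in 2CLC and 6.92 in mESC. The lower families were MER90 (31.1 and 14.2) and MER67A (21.6 and 10.04). The difference between the gates could not be tested.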

How the data were processed

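RNA-seq libraries were trimmed by the authors with Trim Galore 0.6.7 and aligned with STAR 2.7.10 to the mouse genome (mm10), with multi-mapping reads retained and assigned to 1 random place. Reads were counted by the authors on genes and repeat families with TEcounts at default settings. The deposited signal columns hold counts divided by DESeq2 size factors, per library for the Dppa4 experiment and as group means for the other 3. In the Dppa4 tables every value was a whole multiple of 1 read (100% within 0.01), so reads were recovered. The authors' comparison tables hold fold changes and p-values of their own contrasts, 1 of them with a copy of Dppa4 experiment library values for selected genes, and none was used.

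Columns were mapped to groups by the sample labels. In R 4.3.3, limma 3.58.1 was fitted to log2(normalized count + 1) over 4 groups of 3 libraries, with p-values adjusted by Benjamini-Hochberg over 782 repeat families kept by the edgeR 4.0.16 expression filter (minimum count 10), of 1072 with a read. Fold changes are on that log2 scale, which understates changes of low families. Genes (17271) were fitted separately. A family was called at adjusted p under 0.05 with an absolute log2 fold change of at least 1. Ratios of group means used families with a mean of at least 10 over both groups and a pseudocount of 1 on the log2 scale, with no test. The procedure was tested on simulated counts for UNC0638 v DMSO in WT only, with the same spread set for every family. That setting does not cover families whose libraries differ widely within a group, so it does not bear on their calls. DESeq2 1.42.0, edgeR and other settings were alternatives. Per the study's methods the replicates are clones in the time course, washout and Dppa4 experiments and triplicate treatments in the sorting experiment. Nothing ties the library numbers of the Dppa4 experiment to clonal lines, so the main fit has no block.

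Families were named by rule: those past the adjusted threshold in a contrast, the element groups MMERGLN, RLTR1B, RLTR6, MMVL30, MER89, MuLV, RLTR4, MuRRS with RLTR5 and MURVY, the 10 most abundant, and the 5 largest rises and falls of each comparison of means. MURVY-int and LTR72_RN in the UNC0638 contrasts were singled out after their values were seen. The members and lists were chosen with earlier results of these data known. Consensus sequences of the repeats were not used here.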

Additional observations from a re-analysis of the deposited data

How the results depend on the processing

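Under alternatives for the Dppa4 experiment, the number of ERV1 families called for KO v WT in UNC0638 (1) was 2 with TMM over repeats and with edgeR, 3 with a pseudocount of 5 and 4 with DESeq2 and with genes and repeats fitted together. For KO v WT in DMSO (2) it was 4 with genes and repeats fitted together. Leaving out 1 library at a time gave 0 to 3 calls for KO v WT in DMSO, 1 to 4 in UNC0638, 0 to 1 for UNC0638 in WT, and 0 for UNC0638 in KO and for the difference of effects. In fits chosen after seeing the data, both WT libraries numbered 3 left out gave 4 calls in DMSO, 2 in UNC0638 and 1 for UNC0638 in WT (MURVY-int), and a replicate block by line within genotype gave 1 for UNC0638 in WT. Same-number correlations of deviations were 0.06, -0.01 and 0.21 in WT and 0.13, -0.05 and -0.11 in KO. The value of 0.21, for WT library 3, was the highest of the pairs compared. These correlations cannot tell whether equal library numbers share a line, so pairing remained unknown. With the replicate block 2 families were called for KO v WT in DMSO and 3 in UNC0638, and 0 in the other contrasts. No paired analysis was possible because the other 3 experiments were used as group means, and leaving out a replicate was likewise not possible there.

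Counts of ERV1 families past the fold in group means, in either direction, moved as follows, with the share over all repeat families in brackets. With a pseudocount of 5 they were 1 of 72 at 24 h (1.36%) and 1 of 73 for DMSO at 7 d v 24 h (0.135%). They were 2 of 62 for Recovery v dTAG (3.36%) and 4 of 100 for dTAG in 2CLC (6.03%). With means of at least 50 they were 0 at 24 h, 1 at 7 d, 0 for DMSO at 7 d v 24 h, 3 for Recovery v dTAG, 5 for dTAG in mESC and 5 in 2CLC. With no filter they were 7 at 24 h, 12 at 7 d, 8 for DMSO at 7 d v 24 h, 21 at 15 d, 7 for Recovery v DMSO, 13 for Recovery v dTAG, 22 for dTAG in mESC and 20 in 2CLC. At a 1.5-fold limit they were, in that order, 10 of 72 (13.2%), 9 of 70 (15.8%), 8 of 73 (7.31%) and 17 of 61 (26.9%). The last 4 were 6 of 60 (10.5%), 16 of 62 (17.3%), 26 of 87 (17.3%) and 29 of 100 (28.6%). Scaled to the repeat total they were 4 of 61 at 15 d (5.51%) and 2 of 62 for Recovery v dTAG (4.28%). As shares of repeat counts, the log2 ratio of summed ERV1 was -0.43 for 2CLC v mESC in DMSO, -0.78 in dTAG, -0.47 for dTAG in 2CLC, -0.24 for UNC0638 in WT and 0.41 for KO v WT in UNC0638, against 1.89, 2.05, 0.31, 0.15 and -0.03 as sums.

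Scaling to the repeat total turned 64 of 90 ERV1 families higher in 2CLC in DMSO and 76 of 91 in dTAG to lower. Among families named by rule with at least a 2-fold ratio, the scaled log2 ratios that turned were in DMSO MMERGLN_LTR (-0.81), MMVL30-int (-0.29), MURVY-LTR (-0.14), MURVY-int (-0.26), RLTR1B-int (-1.31), RLTR4_MM-int (-0.90), RLTR5_Mm (-0.15), RLTR6C_Mm (-0.71) and RLTR6_Mm (-0.73), and in dTAG MMERGLN_LTR (-1.525), MMVL30-int (-0.70), MURVY-LTR (-0.40), RLTR1B (-0.69), RLTR6C_Mm (-1.24) and RLTR6_Mm (-1.22). Named families under a 2-fold ratio that turned included MMERGLN-int (-1.54 in DMSO and -1.88 in dTAG), RLTR4_Mm (-1.48 and -2.27), and in dTAG RLTR1B-int (-2.12) and RLTR4_MM-int (-1.85). The scaling lowers every log2 ratio by about the same amount, which the repeat totals of the 2 groups set. These totals were 672666 in mESC and 3352115 in 2CLC in DMSO, and 803844 and 5732201 in dTAG. The cause of the larger repeat total in 2CLC was not tested.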
